A study of Mus musculus with 4 samples.

Results

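The simple epithelial keratins Krt7, Krt8, Krt18, Krt19, Krt20 and Krt23 were described in RNA-seq libraries of mouse small intestinal (SI) organoids. The 6 genes were taken by symbol, matched to their Ensembl gene identifiers, from 55487 genes listed, among which 55 carried a keratin symbol. All 6 passed the filter on low counts. Keratins are the intermediate filament proteins of epithelial cells. A filament is built from pairs of an acidic type I and a basic type II keratin, so neither type forms filaments alone, and the filaments tie the cytoplasm to desmosomes and give the cell its mechanical resistance. In the intestine Krt8 is the main type II partner and Krt18 and Krt19 are the main type I partners. Krt20, also of type I, marks the differentiated cells of the villus, Krt7 is a type II keratin best known from ducts and other simple epithelia, and Krt23 is a type I keratin found at low levels in several epithelia.

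The organoids, epithelial cultures grown from mouse intestinal crypts, carried a lentivirus for the miR-181a-5p mimic (MLMIR0085, replicates 3 and 4) or for the miRNA mimic control (NCLMIR002, replicates 1 and 2), and puromycin at 2 ug/ml was used in both groups to keep the infected cells. The comparison asked which genes changed when miR-181a-5p, a miRNA that pairs with mRNAs through its seed, was in excess. There were 2 libraries per group, and neither the labels nor the methods tell if replicates stem from separate infections or animals, so the p-values measure the spread between these libraries, which may be technical. The age and strain of the mice are not given in the sources used here, and the level of the mature miRNA was not analysed here, so the labels were not checked against it.

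Libraries held between 31104884 and 38111731 expected counts, of which the 6 keratins took between 0.194% and 0.226%. Intestinal epithelial markers were high in every library, for example Epcam between 825.3 and 890.3 CPM (normalized counts, scaled to the corrected library size), and none of the 6 epithelial markers was called. Markers of other cell types were near 0. The summed level of 8 mesenchymal markers ran from 4.20 to 7.25 CPM, that of 6 leukocyte markers from 3.52 to 5.98 CPM, that of 4 endothelial markers from 1.25 to 2.16 CPM and that of 7 squamous and gastric markers from 0.0522 to 0.161 CPM, with Col1a2, Col3a1, Dcn, Cdh5, Kdr and Trp63 at 0 in every library.

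The miR-181a-5p sequence is shown because its seed decides which mRNAs it can pair with. The mature form of 23 bases is given as annotated at Mir181a-1 on chromosome 1 (chr1:137966468-137966490, plus strand, RefSeq on GRCm38.p6). Only this locus was taken, and other loci were not looked at. Capitals mark the seed, bases 2 to 8.
mmu-miR-181a-5p: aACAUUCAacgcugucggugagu

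The 7-base match to this seed, TGAATGT, was absent from the 3′ UTRs and coding sequences of all 6 keratins. It was held by 15.35% of 20072 annotated 3′ UTRs of at least 50 bases and by 11.58% of 21901 coding sequences, so most genes lack it in each region. The shorter 6-base match, GAATGT, occurred once among the 6 keratins, in the 3′ UTR of Krt20, and 30.73% of the same 3′ UTRs held it. It is shown within 30 bases of the minus strand (chr11:99428441-99428470, GRCm38), with the match in capitals.
Krt20: tagcctggatggGAATGTgtcttcgtctca

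The 3′ UTRs searched were of unequal length, 66 bases in Krt18, 103 in Krt19, 223 in Krt23, 242 in Krt8, 578 in Krt20 and 2648 in Krt7, so the short ones had little room for a match. A match is only a description of the letters.

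The 6 genes lie in the type II and type I keratin clusters of the mouse genome (GRCm38, protein-coding genes). On chromosome 15, Krt7 is at chr15:101411043-101430313 on the plus strand, Krt8 at chr15:101996698-102004482 on the minus strand and Krt18 at chr15:102028180-102032027 on the plus strand. Krt18 is thus a type I gene within the type II cluster, 23697 bp from Krt8, with their 5′ ends facing each other. On chromosome 11, all on the minus strand, Krt20 is at chr11:99428403-99438150, Krt23 at chr11:99477974-99493137 and Krt19 at chr11:100140810-100148665, and 39823 bp separate Krt20 from Krt23. The encoded proteins have between 403 residues (Krt19) and 490 residues (Krt8). Residues were identical at 61.3% of aligned positions between Krt7 and Krt8, at 40.3% to 48.8% between type I members, and at 25.9% to 33.7% between a type I and a type II member.

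Upstream sequence is shown for Krt20 and Krt23 because Krt23 was the member called in the comparison below and Krt20, its neighbour on the same strand, was the member least like it across the libraries. Windows of up to 250 bases before the start of Krt8, Krt18, Krt20 and Krt23 (RefSeq, GRCm38.p6, only bases ahead of the annotated gene, 110 to 250 bases) were searched on both strands for a TATA box (TATAAA), a CDX motif (TTTATG), a GC box (GGGCGG) and an AP-1 motif (TGANTCA). The Krt20 window held a TATA box, as did 12.37% of 32851 windows of 250 bases, and the Krt23 window held a CDX motif, as did 10.76% of them. No other match was found in the 4 windows, and the GC box and the AP-1 motif were in 32.74% and 6.75% of all windows. The stretches, each 30 bases of the minus strand with the match in capitals, are at chr11:99438165-99438194 and chr11:99493138-99493167, and the Krt23 match is read on the other strand.
Krt20: tctcttgaactcTATAAAaggtcatctcca
Krt23: tcccacagcaaagggCATAAAaccatctca

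Per unit of length, Krt19 and Krt8 were the most abundant of the 6 transcripts and Krt23 the least. Levels are given here in TPM, a relative abundance corrected for transcript length, as mean ± SD over 2 libraries. In the control, Krt19 had 659 ± 49.4 TPM, Krt8 had 627.4 ± 29.99 TPM and Krt18 had 369.2 ± 79.8 TPM, which placed them at ranks 172, 178 and 277 of all genes. Krt20 had 46.1 ± 20.3 TPM, Krt7 had 35.3 ± 11.7 TPM and Krt23 had 16.2 ± 7.12 TPM. The control libraries did not separate Krt19 from Krt8, or Krt20 from Krt7, and at each other step in this order the control libraries did not overlap. With the mimic the order was the same, at 687.2 ± 54.2 TPM for Krt19, 606.9 ± 91.8 for Krt8, 255.8 ± 54.7 for Krt18, 51.9 ± 2.31 for Krt20, 36.6 ± 10.3 for Krt7 and 6.43 ± 0.516 for Krt23. Krt19 and Krt8 again overlapped, and Krt20 and Krt7 did not. The members made up between 99.59% and 99.66% of the summed TPM of all 55 keratin genes in each library.

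**Figure D1:**
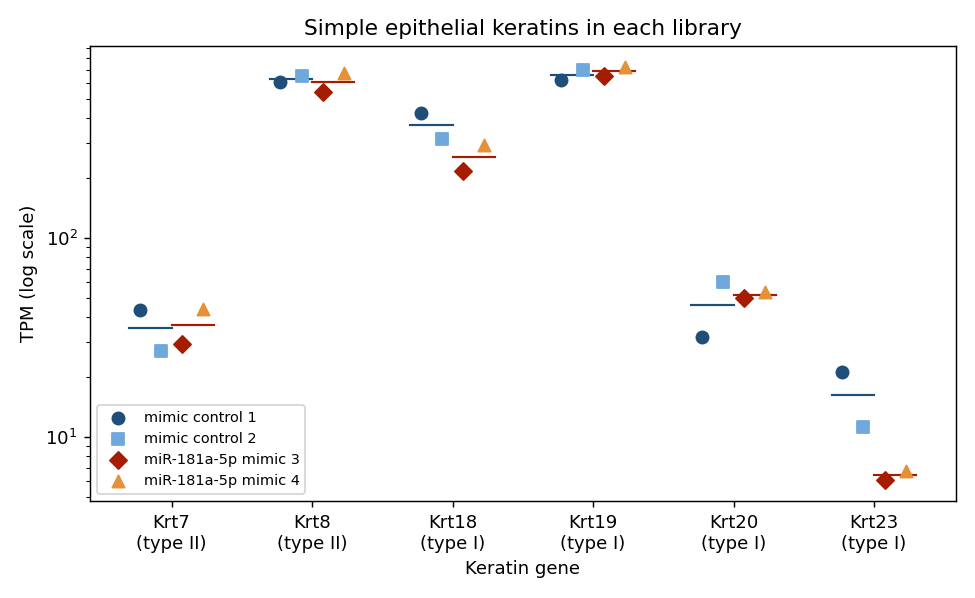
TPM (log axis) of each keratin in each of the 4 libraries, as points, with a short line at the mean of each group (n = 2). Krt19 and Krt8 sit highest, and the mimic libraries lie below both control libraries for Krt18 (217 and 295 against 313 and 426 TPM) and for Krt23 (6.06 and 6.79 against 11.2 and 21.3 TPM).

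Krt23 was the only keratin called between the groups. In normalized CPM it had 26.5 in control 1, 13.8 in control 2, 7.504 in mimic 3 and 7.697 in mimic 4, from 1016, 427, 235 and 274 expected counts. The mimic libraries lay close together and below both controls, while control 1 was almost at double the level of control 2 (a gap of 0.919 on the log2 scale, which 1.62% of tested genes exceeded between the controls). The mean fell from 20.1 ± 8.99 to 7.60 ± 0.137 CPM (SD, n = 2 each), a log2 fold change of -1.41 (SE 0.29, 95% interval -2.08 to -0.74, adjusted p = 0.0476, quasi-likelihood test of edgeR, Benjamini-Hochberg adjusted over 17155 genes). Krt23 was also called when a minimum fold change of 2 was required. Its adjusted p lay just under the threshold, ranged from 3.76e-13 to 0.325 over the 12 other ways of processing the data, and missed it in 5 of them. Without control 1 the log2 fold change was -0.86, under a fold change of 2, and without control 2 it was -1.80.

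Over all 17155 genes tested, 2.17% were called lower, 1.21% were called higher and 1.42% were called lower with a fold change of at least 2. Of the 6 keratins, 1 was lower under both rules and none was higher, and 2 had an unadjusted p under 0.05. Such a p was common among all genes. In the same edgeR fit the gene Elf3, at an unadjusted p of 0.0432, ranked only 3900 of 17155, and the gene Bfsp1, at 0.0531, ranked 4335. The number of tested genes with an unadjusted p under 0.05 lies between these ranks. The members' median log2 fold change was -0.05, beside -0.01 for all genes tested. In bulk libraries such as these, fewer cells that make a transcript and less of it per cell cannot be told apart.

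Krt18, the type I partner of Krt8, was lower in both mimic libraries but was not called. It had 484.0 CPM in control 1, 351.1 in control 2, 245.4 in mimic 3 and 304.8 in mimic 4. As for Krt23, control 1 was the highest library and the groups did not overlap. The log2 fold change was -0.60 (SE 0.17, 95% interval -1.01 to -0.19, adjusted p = 0.101, edgeR), with an unadjusted p of 0.00979 in the same fit. Without control 2 the log2 fold change was -0.81, and without control 1 it was -0.36. Krt18 passed the threshold in the fit without control 2, which kept a lone control library. With all 4 libraries, DESeq2, edgeR's exact and likelihood-ratio tests and the fit without a filter called Krt18. These settings called between 9.32% and 10.9% of all genes they tested, against 3.38% in the reported test. Krt18 and Krt23 were the 2 members whose groups did not overlap, both with the mimic libraries below. Among all tested genes 58.4% had groups that did not overlap, and 29.5% had both mimic libraries below both controls, and 2 of 6 is close to the latter share.

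Krt8, the main type II keratin, was not called. It had 957.4 and 1011 CPM in the control libraries against 850.5 and 965.7 CPM in the mimic libraries, and the groups overlapped. Its log2 fold change was -0.12 (SE 0.11, 95% interval -0.38 to 0.15, adjusted p = 0.563, edgeR). The interval leaves room for a level between 0.767 and 1.11 times that of the control.

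Krt19, a type I keratin without the tail domain of the others, had the smallest difference of the 6. It had 654.5 and 714.5 CPM in controls 1 and 2 and 696.7 and 691.3 CPM in mimics 3 and 4, so that both mimic libraries lay between the controls. Its log2 fold change was 0.02 (SE 0.10, 95% interval -0.23 to 0.27, adjusted p = 0.928, edgeR). The sign was negative with upper-quartile factors (-0.03) and without control 1 (-0.05), neither of which was called.

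Krt20, the marker of differentiated villus cells, differed more between the controls than between the groups. It had 49.2 CPM in control 1 and 92.7 in control 2, a gap that 1.73% of tested genes exceeded, and 77.6 and 75.7 CPM with the mimic. Both mimic libraries lay between the controls. The log2 fold change was 0.11 (SE 0.25, 95% interval -0.48 to 0.70, adjusted p = 0.819, edgeR). Its direction depended on which control was kept: it was -0.28 without control 1 and 0.64 without control 2. Krt20 passed the threshold in the fit without control 2 and in no other setting, and that fit kept a lone control library.

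Krt7, the type II keratin of ducts, likewise varied more within groups than between them. It had 71.9 and 44.8 CPM in the controls against 52.1 and 69.6 CPM with the mimic. Each group held a high and a low library. Its log2 fold change was 0.06 (SE 0.23, 95% interval -0.47 to 0.59, adjusted p = 0.898, edgeR), and it was -0.16 without mimic 4 and -0.24 without control 2, neither called. Krt7 overlaps the antisense gene Gm671, which had between 6 and 42 counts per library, and Krt8 overlaps the lincRNA Gm36026 on the other strand, with between 13.03 and 55.04 counts. The use of strand in the counting is not given in the sources used here, but both genes were small beside the keratins they overlap.

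**Figure D2:**
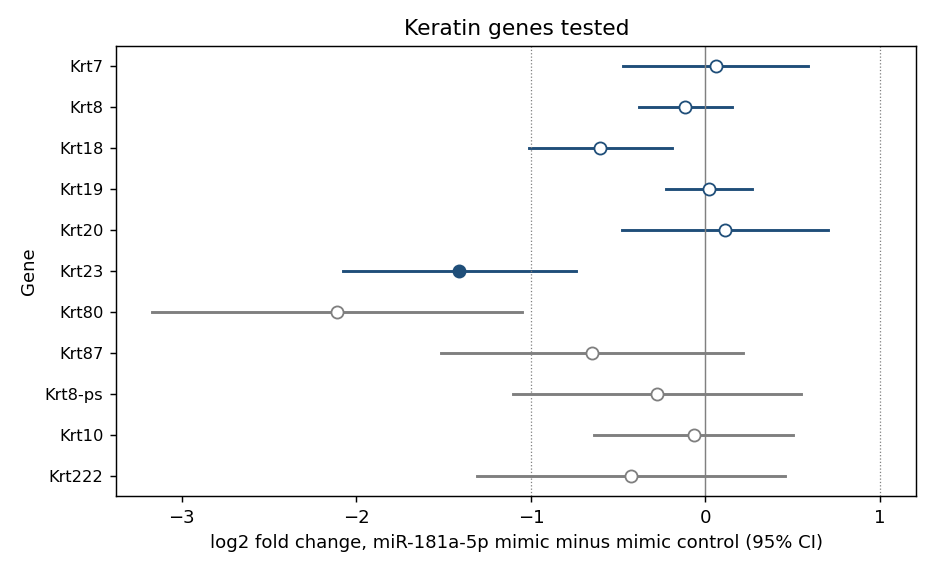
The log2 fold change (mimic minus control) with its 95% interval for the 6 simple epithelial keratins (blue) and the 5 other keratin genes tested (grey), with filled points for an adjusted p under 0.05 and dotted lines at a fold change of 2. Krt23, at -1.41, is the only filled point, and Krt80, at -2.11, is the largest difference.

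**Figure D3:**
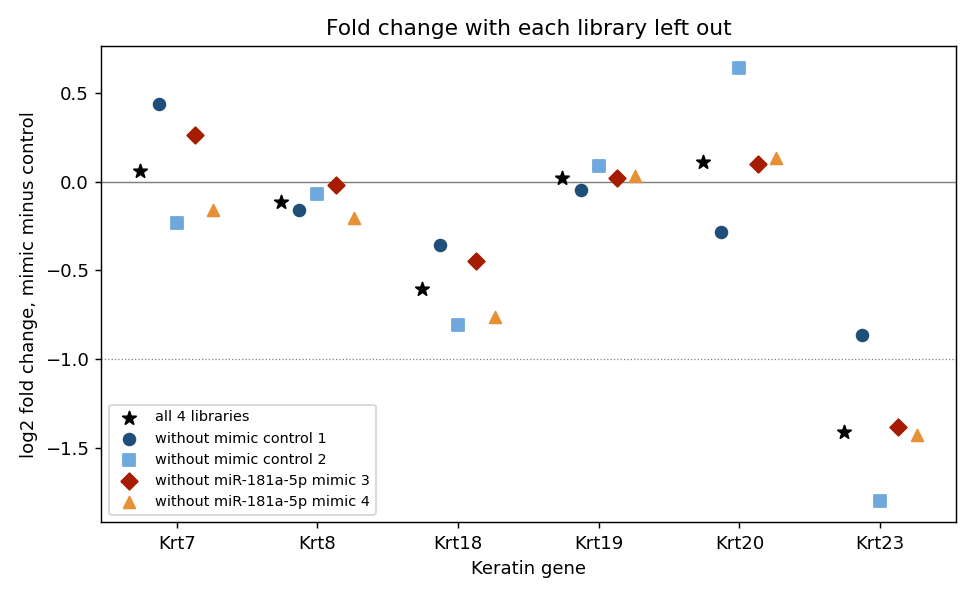
The log2 fold change of each keratin in the fit with all 4 libraries (star) and with each library left out in turn. Krt23 and Krt18 stay below 0 in every case, Krt20 runs from -0.28 to 0.64 and Krt7 from -0.24 to 0.44.

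The make-up of the keratin transcripts was compared within each library, since the ratio of the types bears on how filaments pair. Krt18 made up 24.3% and 17.8% of the members' summed TPM in the control libraries against 14.5% and 16.4% in the mimic libraries, and the groups did not overlap. Krt19 made up 35.6% and 39.6% in controls 1 and 2 and 43.4% and 40.4% in mimics 3 and 4, again without overlap. Krt8 stayed between 34.6% and 37.4% in all 4 libraries. The difference in mean share, mimic minus control, was -5.59 percentage points for Krt18 and 4.33 for Krt19, each with an exact two-sided permutation p of 0.33, the smallest that 2 libraries against 2 allow. These shares are parts of a whole, so a lower share of 1 gene raises the others. The Krt18 difference was -2.37 points without control 1 and -8.82 points without control 2, and the Krt19 difference was 2.36 points without control 1, 2.81 without mimic 3 and 6.31 without control 2.

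The balance of the types overlapped between the groups. Summed type II TPM were 0.589 and 0.627 times the summed type I TPM for the controls against 0.620 and 0.663 times with the mimic. Within that balance the ratio of Krt8 to Krt18 was 1.42 and 2.07 in the control libraries against 2.50 and 2.28 in the mimic libraries, without overlap (exact two-sided permutation p = 0.33). The ratio of Krt8 to Krt18 plus Krt19, the main pairing of the intestine, was 0.578 and 0.644 in controls 1 and 2 and 0.626 and 0.659 in mimics 3 and 4, with overlap. The summed TPM of all 6 keratins were 1752.6 and 1754.1 in the controls against 1493.6 and 1796.0 with the mimic.

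**Figure D4:**
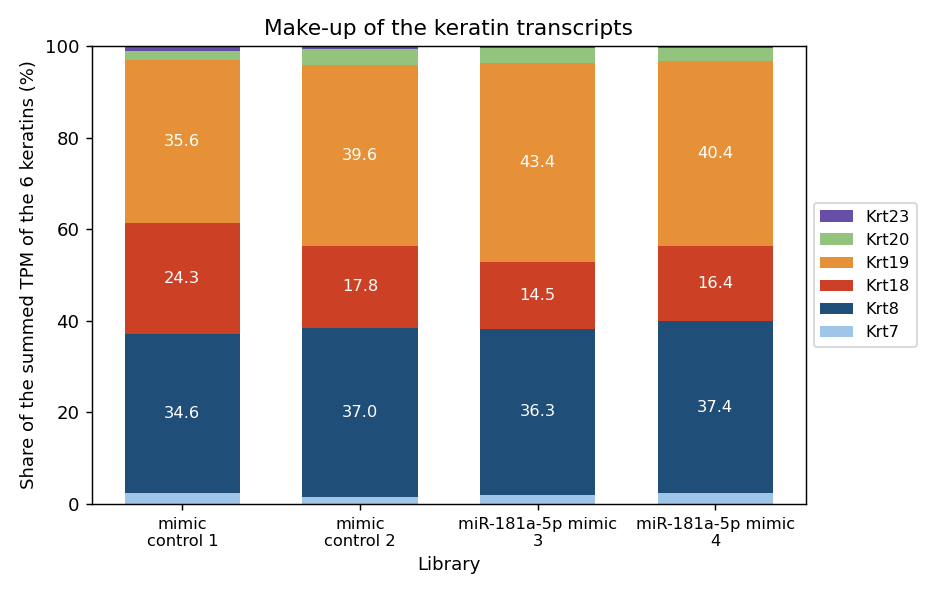
Share of each keratin in the summed TPM of the 6 keratins, in percent, as stacked bars for the 4 libraries. The Krt18 part is 24.3% and 17.8% in the controls against 14.5% and 16.4% with the mimic, the Krt19 part moves the opposite way, and Krt8 stays between 34.6% and 37.4%.

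Of the 49 other keratin genes, 5 passed the filter, 27 were at 0 in all 4 libraries and 17 had no more than 11 counts in any library. None of the 5 was called by edgeR's quasi-likelihood test. An unadjusted p under 0.05, common among all genes as given above, was found for 1, and DESeq2 called the same 1. That gene was Krt80, a type II keratin and the neighbour of Krt7 on its lower-coordinate side, 40880 bp away. Krt80 had 5.03 CPM in control 1, 2.03 in control 2, 0.798 in mimic 3 and 0.843 in mimic 4, from 193, 63.1, 25.1 and 30 counts. As for Krt23, both mimic libraries lay close together below both controls, and control 1 was the highest. Its log2 fold change was -2.11 (SE 0.45, 95% interval -3.17 to -1.05, adjusted p = 0.0536, edgeR), and -1.31 without control 1. Without control 2, mimic 3 or mimic 4 it was -2.61, -2.06 and -2.15. Krt80 passed the threshold in these last fits and not without control 1, and each of them left a lone library in 1 group. The other tested keratin genes were low and not called. The keratin gene Krt87 next to Krt7, 724 bp away, had a log2 fold change of -0.65 (adjusted p = 0.318, edgeR) at no more than 1.12 CPM. Krt222 (-0.43, adjusted p = 0.522) and the Krt8-like pseudogene Krt8-ps (-0.28, adjusted p = 0.666), whose reads can be shared with Krt8, stayed under 1 CPM in every library, and Krt10 (-0.07, adjusted p = 0.893), the suprabasal keratin of stratified epithelium, stayed between 2.11 and 2.33 CPM.

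Among 11 keratins of stratified epithelium Krt10 was the only gene tested, and Krt6a, Krt6b, Krt14 and Krt17 were at 0 in all libraries. None of the other protein-coding neighbours of the members was called. Krt78, Krt15, Krt12 and Krt39 had at most 11 counts in a library, Krt9 had none, and Eif4b, a translation initiation factor gene 41745 bp beyond Krt18, had 1211 and 1064 CPM in the control libraries against 1002 and 1013 CPM in the mimic libraries (log2 fold change -0.17, 95% interval -0.44 to 0.09, adjusted p = 0.374, edgeR). Among the protein-coding neighbours tested, Krt80 was the only gene besides the members Krt18 and Krt23 with an unadjusted p under 0.05. Such a p was common among all genes tested, as given above. Krt20, beside Krt23, and Krt8, beside Krt18, had log2 fold changes of 0.11 and -0.12.

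The genes most like Krt23 across the 4 libraries were Nceh1, a cholesteryl ester hydrolase gene, F3, which encodes tissue factor, and Acta1, the skeletal muscle actin gene. Likeness was the root mean square difference of log2 CPM centred on each gene's mean, over 4 libraries and among 9369 genes of at least 10 CPM. It was 0.0869 for Nceh1, 0.1001 for F3 and 0.124 for Acta1. Nceh1 had 46.1 and 25.6 CPM in controls 1 and 2 and 15.7 and 15.4 CPM in mimics 3 and 4. F3 had 23.3 and 13.7 against 6.23 and 7.47 CPM. Acta1 had 40.4 and 23.8 against 10.5 and 10.8 CPM, and its reads may be shared with other actin genes. In each of them control 1 was the highest library and the mimic libraries were the lowest, which follows from how they were chosen. By the same measure Krt18 was the member nearest to Krt23, at rank 184 (0.392), and Krt20 was the farthest, at rank 8899 (0.973).

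Proteins that hold keratin filaments in place were next compared. Among 8 genes of plakins and hemidesmosome linkers, all tested, 1 was called lower, beside 2.17% of all genes tested, and none higher. Their median log2 fold change was -0.28, beside -0.01 for all genes tested. The called gene was Eppk1, which encodes epiplakin, a plakin that binds keratin filaments and in particular Krt8 and Krt18. Eppk1 had 1001 and 1021 CPM in the controls against 527.6 and 606.7 CPM with the mimic. Both mimic libraries lay below both controls. The log2 fold change was -0.83 (SE 0.11, adjusted p = 0.0155, edgeR), under a fold change of 2. Without mimic 3 it was -0.73, which was not called. Eppk1 was also not called in the 3 limma fits on TPM (adjusted p from 0.103 to 0.314). For the plakins Plec, Ppl, Evpl, Dst and Macf1 the log2 fold changes ran from -0.41 (Ppl) to -0.08 (Macf1), and none was called. The hemidesmosome integrin Itga6 had a log2 fold change of 0.38 and its partner Itgb4 of -0.17, neither called.

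The 7 desmosome genes were all tested and none was called, at a median of 0.03. Dsp, which encodes the desmoplakin that anchors keratin filaments at desmosomes, had 675.4 and 709.2 CPM in the control libraries against 604.0 and 588.0 CPM in the mimic libraries (log2 fold change -0.22, adjusted p = 0.239, edgeR). Pkp1, a plakophilin gene, had the largest log2 fold change of the list, 0.49 (adjusted p = 0.0991, edgeR). Of 8 keratin-binding regulators, 7 were tested, none was called and the median was 0.04. They include Fam83h and Csnk1a1, which act together on keratin filaments, at -0.10 and 0.03.

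**Figure D5:**
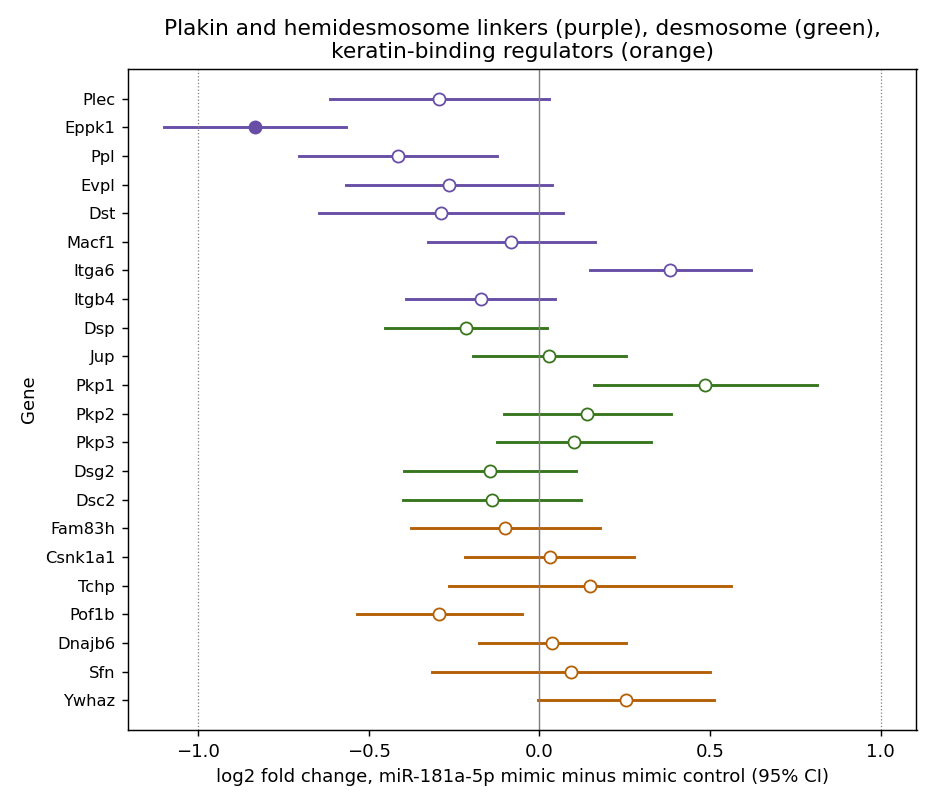
The log2 fold change (mimic minus control) with its 95% interval for the plakin and hemidesmosome linkers, the desmosome genes and the keratin-binding regulators that were tested, with filled points for an adjusted p under 0.05. Eppk1, at -0.83, is the only filled point, and the other genes lie between -0.41 and 0.49.

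Of 17 other intermediate filament genes, 13 were tested, 1 was called higher, beside 1.21% of all genes tested, and none lower. Their median was 0.40, beside -0.01 for all genes tested. The called gene was Iffo1, which encodes a nuclear protein of the intermediate filament superfamily. It had 1.83 and 1.84 CPM in controls 1 and 2 and 4.47 and 3.79 CPM in mimics 3 and 4 (log2 fold change 1.17, SE 0.24, adjusted p = 0.0471, edgeR). Iffo1 was not called with upper-quartile factors (adjusted p = 0.0543, edgeR) or in the 3 limma fits on TPM (adjusted p from 0.16 to 0.322). Nor was it called without mimic 3 (log2 fold change 1.055) or without control 1 (1.158). Vim, which encodes the vimentin of mesenchymal cells, had between 3.52 and 6.88 CPM and a log2 fold change of 0.56 (adjusted p = 0.224, edgeR).

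Lists of genes that mark the state of the epithelium were also compared. The 7 transcription factor genes of the intestinal epithelium had no call and a median log2 fold change of 0.28, with Cdx1 at 0.47 (adjusted p = 0.0516) and Cdx2 at 0.32 (adjusted p = 0.0991). Among 8 villus tip enterocyte genes none was called and the median was -0.45. Their summed level was 483.9 and 859.3 CPM in the controls against 451.9 and 495.4 CPM with the mimic. Most of this sum was the apolipoprotein gene Apoa4, at 393.5 and 753.5 CPM in controls 1 and 2 and 363.0 and 415.3 CPM in mimics 3 and 4. Control 2 was the highest library for Apoa4, Ada, Nt5e and Creb3l3, as it was for Krt20. The other genes of the list differed. Slc28a2, a nucleoside transporter gene (9.60 CPM), Egfr and Fosb were highest in control 1, and Clca4a was highest in mimic 4 (2.19 CPM).

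Tuft cells, a chemosensory cell type of the epithelium, are known for high Krt18. Of 11 tuft cell genes 6 were tested, none was called and the median was -0.13. The summed level was 18.8 and 9.97 CPM in the control libraries against 12.5 and 14.4 CPM in the mimic libraries, so control 1 was highest as for Krt18 and Krt23, but the mimic libraries lay between the controls. Of 8 fetal-like and injury genes 4 were tested, 2 were called higher (beside 1.21% of all genes tested) and none lower, at a median of 1.51, and the other 4 did not pass the filter. Msln, the mesothelin gene, had 1.12 and 0.871 CPM in controls 1 and 2 and 7.03 and 7.33 CPM in mimics 3 and 4 (log2 fold change 2.84, adjusted p = 0.00513, edgeR). Clu, the clusterin gene that marks revival stem cells after injury, had 1.62 and 1.32 against 4.66 and 3.60 CPM (log2 fold change 1.48, adjusted p = 0.0354, edgeR). Clu was not called without mimic 3 (log2 fold change 1.29) or in the 3 limma fits on TPM (adjusted p from 0.114 to 0.314). Msln was not called in the limma fit on log2(TPM + 1) without a filter (adjusted p = 0.237). The part of these cell states in the values of Krt18, Krt20 and Krt23 was not tested.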

How the data were processed

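Expression was measured by RNA-seq in 4 libraries. The authors used Trimmomatic on single reads of 100 cycles, ran RSEM on GRCm38 transcripts and deposited expected counts, which are not normalized, and TPM, which sum to 1000000 per library up to rounding. The supplemental methods describe depletion of ribosomal RNA and the labels poly(A) selection. In each of the tables, 3 columns matched no sample and were not used. The members and gene lists were chosen with earlier results of these data known. Named genes are the members, the other keratin genes tested, their protein-coding neighbours, the called genes of each list (at most the 4 largest) and the 3 genes nearest in pattern to a called member. Others are named as examples and were chosen after their values were seen.

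Deposited expected counts were rounded, and the test was edgeR's (version 4.0.16, R 4.3.3: filterByExpr, TMM, estimateDisp, glmQLFit, glmQLFTest), with Benjamini-Hochberg adjustment over 17155 genes. A gene was called at an adjusted p under 0.05. A standard error is the log2 fold change divided by the square root of F. Positions, UTRs and coding sequences came from the GENCODE annotation of GRCm38, from the transcript of each gene with the longest coding sequence, and protein identities from global alignments (Biopython 1.88). The steps were tested on simulated counts. Counts of the libraries of a group differed by more than counting noise (chi-square per degree of freedom 30.4 for the controls and 16.5 for the mimic), so each library was counted as 1 sample, and a second library of the same RNA could differ as much. Depth was similar, and precision is limited by 2 libraries per group. An exact permutation test cannot go below p = 0.33. Alternatives were DESeq2 1.42.0, edgeR's exact, likelihood-ratio and robust tests, RLE and upper-quartile factors, library totals, other filters on low counts, limma 3.58.1 on log2(TPM + 1) or log2(TPM + 0.1), and leaving out each library. Plots were drawn with matplotlib 3.10.9.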

Additional observations from a re-analysis of the deposited data

How the results depend on the processing

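No paired analysis was possible because the groups share no replicate numbers. The number of the 6 keratins called was 1, and it was 2 (Krt23 and Krt18) with DESeq2, edgeR's exact and likelihood-ratio tests and no filter on low counts, and 0 with library totals only, the robust quasi-likelihood test and the 3 fits on TPM. Under a minimum fold change of 2 it was 1, and 0 in those same 5 settings. Those tests also differed over all genes: DESeq2 called 9.32% of the genes it tested, the exact test 10.4%, the likelihood-ratio test 10.9% and the fit without a filter 9.52%, against 3.38% in the reported test, 3.67% in its robust form, and 0.534%, 0.192% and 0.00685% in the fits on log2(TPM + 1), log2(TPM + 0.1) and log2(TPM + 1) without a filter. The number of genes called also shifted when 1 library was left out, most of all without control 2, for the keratins and for all genes alike. In such fits the group with a lone library is assumed to vary like the other.

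Krt23 missed the threshold with library totals (-1.39, adjusted p = 0.0533), the robust test (-1.41, 0.0774), log2(TPM + 1) (-1.15, 0.146), log2(TPM + 0.1) (-1.25, 0.154) and log2(TPM + 1) without a filter (-1.15, 0.325), and ran from -1.80 to -0.86 with a library left out. The TPM values here are differences of log2(TPM + pseudocount). Krt18 passed with DESeq2 (-0.58, adjusted p = 0.0154), the exact test (-0.60, 0.0257), the likelihood-ratio test (-0.60, 0.0248) and no filter (-0.59, 2.52e-05), and ran from -0.81 to -0.36 with a library left out. Without control 2, Krt18 and Krt20 passed as well, with a lone library in the control group. Krt20 ran from -0.28 to 0.64 with a library left out, and Krt7 from -0.24 to 0.44 (-0.16 without mimic 4). Krt19 ran from -0.048 to 0.089 with a library left out and was -0.031 with upper-quartile factors. Krt8 stayed between -0.21 and -0.02 in all settings. Krt10 was 0.22 on log2(TPM + 0.1), 0.17 on log2(TPM + 1) with and without a filter and ran from -0.133 to 0.009 with a library left out.

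Of the other keratin genes 1 (Krt80) was called, in place of 0, with DESeq2, the exact and likelihood-ratio tests, no filter and at least 10 counts in every library. That count also moved between fits with a library left out. In the other lists together 3 genes were called higher and 1 lower. These counts were 9 and 3 with DESeq2, 8 and 3 with the exact and likelihood-ratio tests, 12 and 6 without a filter, 1 and 0 on log2(TPM + 1) and log2(TPM + 0.1), 0 and 0 on log2(TPM + 1) without a filter, and 5 higher with the robust test. With upper-quartile factors 2 were called higher, without Iffo1 (adjusted p = 0.0543). They also shifted with a library left out. The causes were not tested.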
